A study of Mus musculus with 6 samples.

Results

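Glutamate and GABA receptor genes were examined in mouse primary oligodendrocyte precursor cells (mOPCs), the dividing glial cells that give rise to myelinating oligodendrocytes. The genes were taken by symbol, as every listed gene for an AMPA, kainate, NMDA or delta glutamate receptor subunit, a metabotropic glutamate (mGlu) receptor, a GABA-A receptor subunit of the alpha, beta, gamma, delta, epsilon or rho class, or a GABA-B receptor subunit. This gave 45 of the 23038 genes in the expression files. The cultures were transfected with a control siRNA (siNC, 3 libraries) or with siRNA against Qk (siQk, 3 libraries), and the labels name no other agent or allele that differed between the groups. Qk encodes the Quaking RNA-binding proteins, which act on splicing, stability and translation of mRNA in glia. The labels state that 3 different siRNAs were directed at Qk, without saying which library received which, and they call the libraries biological replicates. Poly-A RNA was sequenced, and each file gives for every gene a fragment (tag) count and the level as RPKM, the reads of a gene scaled by its exon length and by the library total.

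Ionotropic glutamate receptors are ion channels assembled from several subunits, and the subunits that are present set how fast the channel closes and whether calcium passes through it. AMPA receptors carry most fast excitatory transmission, kainate receptors modulate it, and NMDA receptors need the subunit encoded by Grin1. The mGlu receptors signal through G proteins. GABA-A receptors are chloride channels built from alpha and beta subunits together with a gamma or another subunit, and GABA-B receptors are G protein-coupled dimers of the products of Gabbr1 and Gabbr2. OPCs are known to receive synaptic input from glutamatergic and GABAergic axons, chiefly through AMPA and GABA-A receptors. Quaking proteins bind RNA that carries the letters ACTAAC or ACTAAT (U in place of T in the RNA).

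The 3′UTRs of receptor genes that changed are shown first, at the places where those letters occur, because 3′UTRs are among the regions through which Quaking proteins are known to act. For each gene the longest 3′UTR of the GENCODE M21 annotation (GRCm38, the assembly also called mm10) was searched on the transcript strand for ACTAAC and ACTAAT, counting overlapping matches. Of 20644 genes with a 3′UTR of at least 50 bases, 32.6% held one of them. Each line gives a 30-base window in the 5′ to 3′ direction of the transcript, as DNA, with the motif in capitals.
Gria1, first match, chr11:57327870-57327899, plus strand: gtgaagatggtcACTAACtctatgctgcaa
Gria1, second match, chr11:57329002-57329031, plus strand: taacacagggatACTAACctttttccctgg
Gria3, first match, chrX:41677703-41677732, plus strand: ggctctcaagtaACTAATtgcaaacctgct
Gria3, second match, chrX:41677762-41677791, plus strand: tagtctccgctcACTAATtacctcctatat
Gria3, last match, chrX:41678476-41678505, plus strand: attgccaagcaaACTAATggccgtaaaagt
Grik3, single match, chr4:125709121-125709150, plus strand: ccccctccacagACTAACtttggggtaggt
Grin3a, first match, chr4:49664595-49664624, minus strand: gagcctcccctgACTAACcttgagtaggaa
Grin3a, second match, chr4:49664473-49664502, minus strand: acttctaatggaACTAATcatctccaccat
Gabra2, first match, chr5:70961706-70961735, minus strand: ttgtacagtctgACTAATaactgctaattt
Gabra2, second match, chr5:70959673-70959702, minus strand: cagcttcatcctACTAACagaattcgctct
Gabra2, last match, chr5:70959150-70959179, minus strand: ccccatgacccaACTAATtgagaaaagaaa

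The matches lay in genes that fell in siQk (Gria1, Gabra2) and in genes that rose (Gria3, Grik3, Grin3a). Neither motif was in the annotated 3′UTR of Gabra3 or Gabra4, which also rose. Receptor genes that were not called also held these letters: 15 of 37 had at least 1 match, beside 6 of the 8 called genes. Gria2 held 7, the most of any receptor gene, in a 3′UTR of 7268 bases. Gabrb1 and Grin2b held 6 each, Grin2a 4, Gabrg3 3, and Gria4, Gabrg1 and Gabrr3 2 each. Long 3′UTRs hold a 6-base motif more often. The 3′UTRs of the called genes ran from 1950 bases (Gabra4) to 6082 bases (Grik3), and of all 3′UTRs within 20% of the same length 46.7% held a motif at the length of Gabra4 and 83.4% at the length of Grik3. For Gria1, with 2 matches in 2598 bases, that share was 56.1%, and for Gabra2, with 3 in 4205 bases, it was 72.7%. A match is a description of the reference sequence, and binding was not measured here.

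The targeted gene was read first. Qk (gene ID 19317) was at 209.2, 206.4 and 163.0 RPKM in siNC 1 to 3 and at 51.3, 76.6 and 36.2 RPKM in siQk 1 to 3, so the groups did not overlap. The means were 193 ± 25.9 and 54.7 ± 20.4 RPKM (SD, n = 3 each), leaving 28.4% of the control level, and the log2 fold change was −1.98 with a standard error (SE) of 0.28 (adjusted p = 0.00311, edgeR's quasi-likelihood test with Benjamini-Hochberg adjustment). The library totals ran from 58166490 tags (siNC 1) to 141045937 tags (siQk 1). The ribosomal RNA gene Rn45s took 3.12% of the tags in siNC 1 and at most 0.389% in the other 5 libraries. A gene was tested where its average logCPM (log2 of the count scaled to library size) was over 0, and called changed at P below 0.01 and a false discovery rate (FDR) below 0.1. Of 12505 genes tested, 3879 (31.0%) were called changed, 1730 higher (13.8%) and 2149 lower (17.2%) in siQk. The composition of the libraries differed: scaling by library size alone moved the median log2 fold change of all genes from 0.01 to 0.16, so RPKM means stand slightly higher in siQk than the fitted fold changes do.

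The cultures carried the markers of OPCs. All 10 OPC markers listed were tested, 3 were called higher (Cspg4, Olig1, Olig2) and 1 lower (Lhfpl3), and their summed level ran from 1052 to 1122 RPKM in siNC and from 1252 to 1408 RPKM in siQk. Of 8 markers of myelinating oligodendrocytes, all tested, 6 were called lower (75.0%, beside 17.2% of all genes tested), with a median log2 fold change of −1.67. Of 8 astrocyte markers 7 were tested and 4 were called lower (57.1%, beside 17.2%, median −1.06). None on either list was called higher. Of 15 neuronal markers 11 were tested and 4 were called higher (Snap25, Nefl, Syp and Map2, 36.4%, beside 13.8% of all genes tested). None was called lower, and the median of the list was 0.79. Their summed level was 211.8 to 302 RPKM in siNC and 242.9 to 290 RPKM in siQk. Of the defining neuronal markers, Slc17a6 had no tag in any library, Slc17a7 reached at most 0.0699 RPKM, Stmn2 at most 0.0439 RPKM and Rbfox3 at most 0.672 RPKM, while Elavl4 lay between 5.04 and 9.85 RPKM in siNC and between 11.2 and 13.8 RPKM in siQk. The defining astrocyte markers Gja1 and Aqp4 reached at most 0.0130 and 0.528 RPKM. The other listed astrocyte markers had higher means in siNC: Aldoc 94.9, Gfap 69.1, Slc1a3 25.5, Slc1a2 17.5, Aldh1l1 7.025 and Fgfr3 3.46 RPKM. The whole astrocyte list summed to 183.3 to 262.6 RPKM in siNC and to 136.4 to 157.2 RPKM in siQk. The part of these shifts in the receptor results was not tested. In bulk RNA, fewer cells of a type and less RNA per cell cannot be told apart.

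Receptor genes ranged from abundant mRNAs to genes with no tag at all. In siNC, 11 of the 45 genes had a mean over 10 RPKM, 20 were over 1 RPKM and 33 were over 0.1 RPKM. Among the highest were the kainate subunit Grik5 (48.0 ± 1.35 RPKM, SD, n = 3), the AMPA subunit Gria2 (40.4 ± 3.92), Grik3 (29.2 ± 3.07), Gria4 (24.9) and Gabbr2 (20.95). Grid1, Grm5, Gabbr1, Grik2 and Gabrg1 followed between 13.7 and 17.7 RPKM. Of these named genes, each from Grik3 down to Grid1 overlapped its neighbour in single libraries, such as Grik3 (26.7 to 32.6 RPKM) and Gria4 (22.1 to 27.2 RPKM). The lowest value of Grik5, 46.7 RPKM, was above the highest of Gria2, 43.9 RPKM, and the lowest of Gria2, 36.2 RPKM, was above the highest of Grik3.

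**Figure D1:**
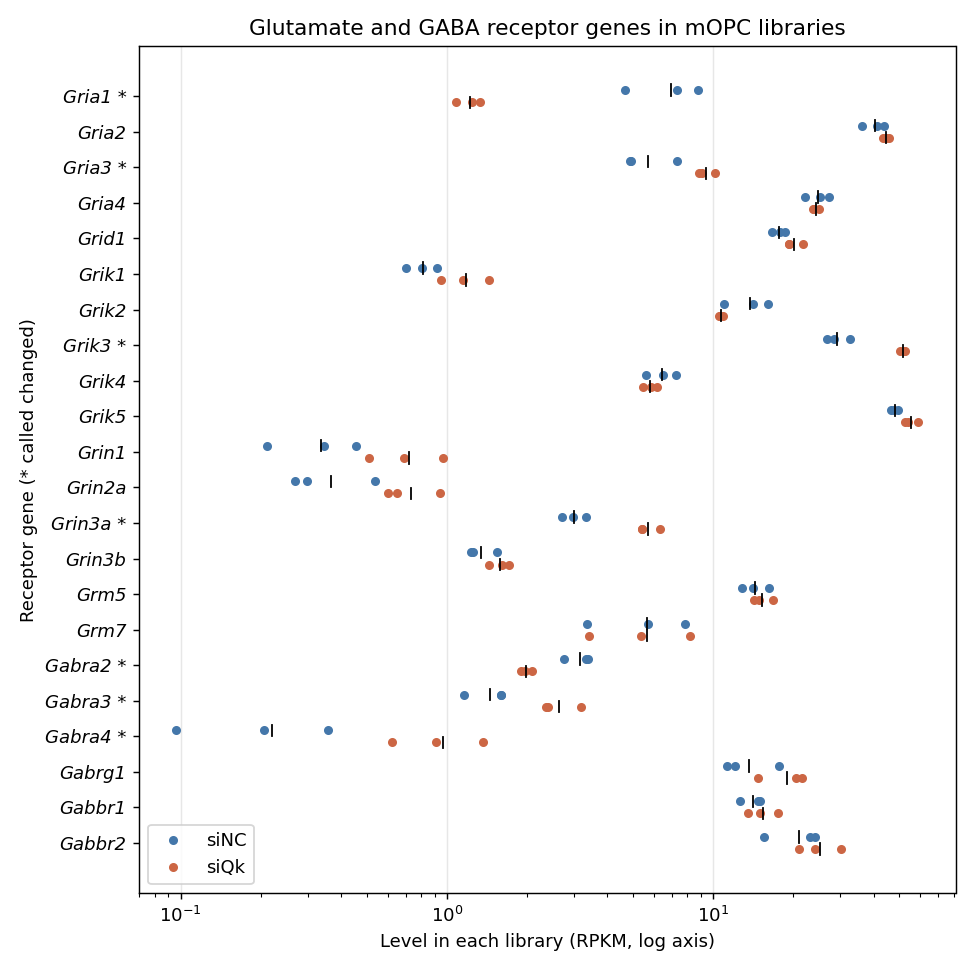
Level of 22 receptor genes with a mean of at least 0.5 RPKM in either group, in each of the 6 libraries (horizontal log axis, RPKM). Points are libraries, vertical ticks are group means, and an asterisk marks the genes called changed. Gria1 and Gabra4 show the widest gaps between the groups, and Gria2, Gria4, Grm5, Gabbr1 and Gabbr2 overlap.

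Of the 45 receptor genes, 27 passed the filter and 8 of them were called changed, 29.6% beside 31.0% of all genes tested. That share was near that of all genes. Higher in siQk were 5 (Gria3, Grik3, Grin3a, Gabra3, Gabra4), beside 13.8% of all genes, and lower were 3, among them Gria1 and Gabra2, beside 17.2%. Without any one of the siQk libraries 3 were called higher, and without siNC 1 or siNC 3 there were 5 called lower. The other 19 tested genes were not called. The fitted log2 fold changes of the 27 genes were positive in 14 and negative in 13, with a median of 0.03 beside 0.01 over all genes tested, and the median of their absolute size was 0.36 beside 0.25. With scaling by library size alone, 5 of the negative values, all near 0, turned positive. Calls of both signs stood side by side within the AMPA family and within the GABA-A alpha family.

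**Figure D2:**
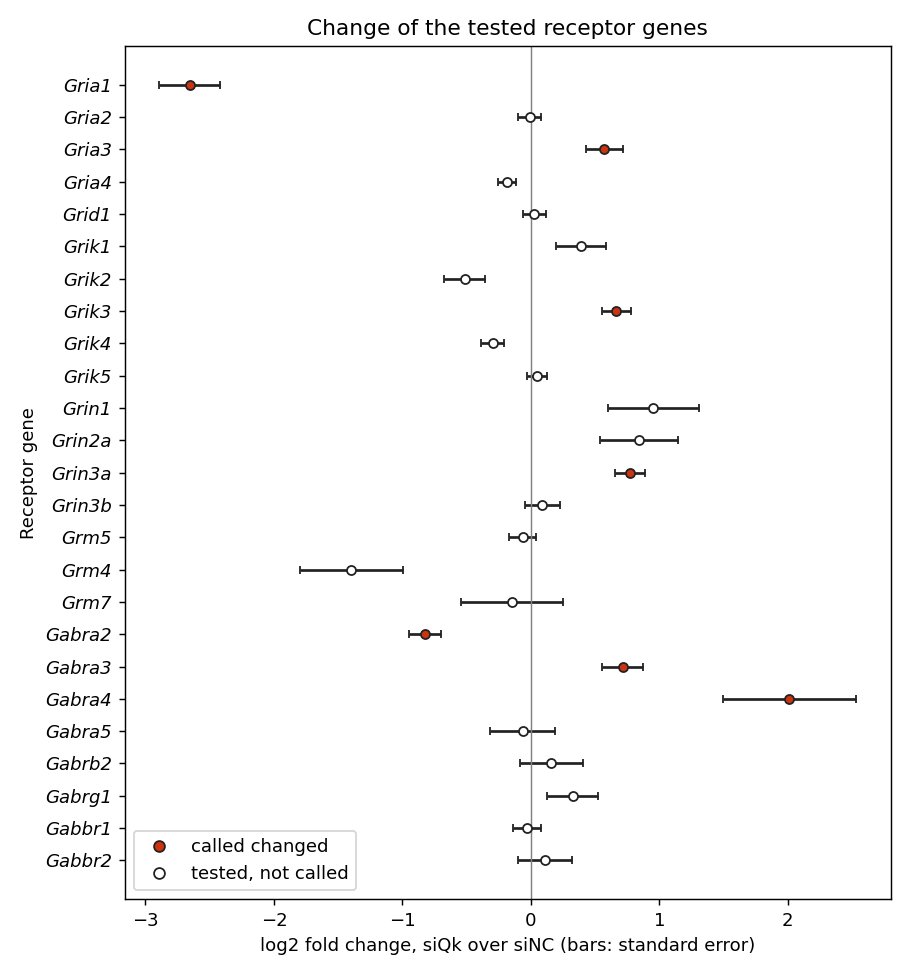
Fitted log2 fold change of siQk over siNC (horizontal axis) for 25 of the tested receptor genes, ordered by family, with bars of 1 standard error. Filled points are 7 genes called changed, from −2.65 (Gria1) to 2.01 (Gabra4), and open points are 18 not called.

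Among AMPA receptor subunits the mRNA of Gria1 fell, that of Gria3 rose, and the most abundant ones, Gria2 and Gria4, were not called. Gria1 (gene ID 14799, chr11:57011571-57330244), whose product forms calcium-permeable channels when Gria2 is missing from the assembly, was at 7.33, 4.65 and 8.78 RPKM in siNC and at 1.25, 1.33 and 1.09 RPKM in siQk. The highest siQk library lay below the lowest siNC library, and the siQk libraries were close to each other. The means were 6.92 ± 2.10 and 1.22 ± 0.126 RPKM (SD, n = 3 each), and the fitted difference was 6.29-fold, a log2 fold change of −2.65 (SE 0.24, adjusted p = 0.000895, edgeR's quasi-likelihood test). Counts behind it were 2499 to 6798 tags in siNC and 647 to 1031 tags in siQk. Gria1 was called under all 17 alternative settings, with log2 fold changes from −2.88 to −2.48.

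Gria2, whose edited transcript gives a subunit that keeps calcium out, was at 41.2, 36.2 and 43.9 RPKM in siNC and at 43.5, 44.6 and 45.8 RPKM in siQk. The ranges overlapped and the log2 fold change was −0.01 (SE 0.09, adjusted p = 0.938, edgeR). Gria4, a subunit of fast-closing channels, stood at 22.1, 27.2 and 25.3 RPKM against 23.9, 25.0 and 23.8 RPKM, also overlapping, with a log2 fold change of −0.19 (SE 0.07, adjusted p = 0.0730, edgeR). Gria3 (gene ID 53623, chrX:41400819-41678601) was at 4.87, 4.93 and 7.29 RPKM in siNC and at 8.86, 10.2 and 9.05 RPKM in siQk. The groups did not overlap, though siNC 3 stood closer to the siQk libraries than to the other control libraries. Its log2 fold change was 0.57 (SE 0.14, adjusted p = 0.0224, edgeR), and the call was lost when siNC 1, siNC 2 or any one of the siQk libraries was left out (0.47 to 0.61 on the log2 scale, adjusted p between 0.0510 and 0.0754 in edgeR).

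The summed level of the AMPA subunits, 77.9 ± 6.46 RPKM in siNC and 79.4 ± 1.82 RPKM in siQk, differed in RPKM by less than the spread between the control libraries. Summed RPKM, here and for the families below, was not scaled for library composition and so stands slightly higher in siQk. Of the 4 fitted AMPA log2 fold changes, which were so scaled, 3 were negative and 1 was positive. Within that sum Gria1 made up 8.79% ± 2.12 in siNC and 1.54% ± 0.154 in siQk (SD, n = 3 each), and Gria3 7.25% ± 1.14 and 11.8% ± 0.686. Gria2, the leading subunit, held 51.9% ± 2.54 in siNC and 56.2% ± 1.24 in siQk. Its share did not overlap between the groups (exact two-sided permutation p = 0.1, the smallest that 3 against 3 libraries allow, and 0.2 after adjustment over 10 families), so no share in this design could pass a threshold of 0.05. A share within a library does not depend on how libraries are scaled to each other.

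Delta receptors bind cerebellins and organize synapses rather than act as glutamate-gated channels. Of these, Grid1 was at 17.8, 18.6 and 16.6 RPKM in siNC and at 19.2, 19.3 and 21.7 RPKM in siQk. Its groups did not overlap in RPKM, but after scaling for library composition the log2 fold change was 0.03 (SE 0.09, adjusted p = 0.827, edgeR).

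All 5 kainate receptor genes were tested and 1 of them, Grik3, was called (20%, beside 31.0% of all genes tested). Grik3 (gene ID 14807, chr4:125490259-125714173), a low-affinity subunit that forms channels by itself, was at 32.6, 28.3 and 26.7 RPKM in siNC and at 52.2, 50.3 and 52.5 RPKM in siQk. The lowest siQk library was well above the highest siNC library. The rise was 1.59-fold (log2 fold change 0.67, SE 0.11, adjusted p = 0.00617, edgeR) and was called under all 17 alternatives (0.58 to 0.82).

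Grik5, which needs a partner from among Grik1, Grik2 and Grik3 to form a channel, was at 47.8, 49.4 and 46.7 RPKM in siNC and at 52.5, 53.8 and 59.0 RPKM in siQk. The groups were apart in RPKM, yet the scaled log2 fold change was 0.05 (SE 0.08, adjusted p = 0.645, edgeR). Grik2 was at 16, 14.1 and 10.96 RPKM in siNC and at 10.6, 10.5 and 10.9 RPKM in siQk, where siNC 3 nearly met the siQk libraries. Its log2 fold change of −0.52 (SE 0.16) had an adjusted p of 0.0422 but an unadjusted p of 0.0147 in edgeR's quasi-likelihood test, which missed the cutoff of 0.01. It was called by DESeq2, by edgeR's likelihood ratio and exact tests, when siNC 3 was left out, and under a cutoff on FDR of 0.05 alone.

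Grik4, the other subunit that needs a partner, gave 5.59, 6.50 and 7.24 RPKM in siNC and 5.44, 6.16 and 5.82 RPKM in siQk. These overlapped, and the log2 fold change was −0.30 (SE 0.09, adjusted p = 0.0418, unadjusted p = 0.0144, edgeR), again short of a call. DESeq2, leaving out siNC 1 and the cutoff on FDR of 0.05 alone each called it. Grik1 gave 0.808, 0.921 and 0.704 RPKM against 1.44, 0.953 and 1.15 RPKM, with a log2 fold change of 0.39 (SE 0.19, adjusted p = 0.148, edgeR). The summed kainate level was 98.1 ± 5.33 RPKM in siNC and 124 ± 4.25 RPKM in siQk (SD, n = 3 each). Grik3 made up 29.7% ± 1.76 of it in siNC and 41.5% ± 1.07 in siQk, and Grik2 13.9% ± 1.87 and 8.59% ± 0.13. The share of the leading subunit Grik5 was 48.9% ± 2.19 and 44.3% ± 1.29, without overlap (exact permutation p = 0.1, 0.2 adjusted over 10 families).

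NMDA receptor genes were low except for Grin3a. Of 7 genes 4 were tested, the fitted log2 fold changes of all 4 were positive, and 1 was called (25%, beside 31.0% of all genes tested). Grin3a (gene ID 242443, chr4:49661611-49846023), which lowers calcium passage and magnesium block where it joins the receptor, was at 2.98, 3.33 and 2.70 RPKM in siNC and at 5.39, 6.31 and 5.38 RPKM in siQk. The groups did not overlap. It rose 1.70-fold (log2 fold change 0.77, SE 0.12, adjusted p = 0.00422, edgeR's quasi-likelihood test), and every alternative among the 17 called it (0.67 to 0.92).

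Grin1, the obligatory subunit, was at 0.455, 0.211 and 0.346 RPKM in siNC and at 0.689, 0.511 and 0.965 RPKM in siQk. No siNC library reached a siQk library, but the spread was wide for such a low level, and the log2 fold change of 0.95 (SE 0.35) was not called (adjusted p = 0.0729, edgeR), except with scaling by library size alone. Tags from the opposite strand at this locus, which an antisense gene overlaps, could not be separated, since the library kit does not mark the strand. Grin2a, a glutamate-binding subunit, gave 0.269, 0.297 and 0.538 RPKM against 0.599, 0.649 and 0.943 RPKM, with a log2 fold change of 0.84 (SE 0.30, adjusted p = 0.0687, edgeR), not called. The fit with a replicate block called it (0.88, adjusted p = 0.0296, edgeR), as did the likelihood ratio test, the exact test and leaving out siNC 3. Grin3b gave 1.23, 1.55 and 1.26 RPKM against 1.45, 1.72 and 1.604 RPKM, and 0.09 (SE 0.14, adjusted p = 0.631, edgeR). Grin2b, Grin2c and Grin2d were below the filter, with at most 0.196 RPKM in any library.

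The summed NMDA level was 5.26 ± 0.304 RPKM in siNC and 8.96 ± 0.529 RPKM in siQk (SD, n = 3 each). Grin3a held 57.1% ± 3.12 and 63.5% ± 4.004 of it, and Grin1 6.50% and 8.09%. The Grin3a shares overlapped between the groups (exact permutation p = 0.2, 0.286 adjusted over 10 families). On the per-length RPKM scale, mRNA of Grin3a exceeded that of the obligatory subunit Grin1 in every library.

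**Figure D3:**
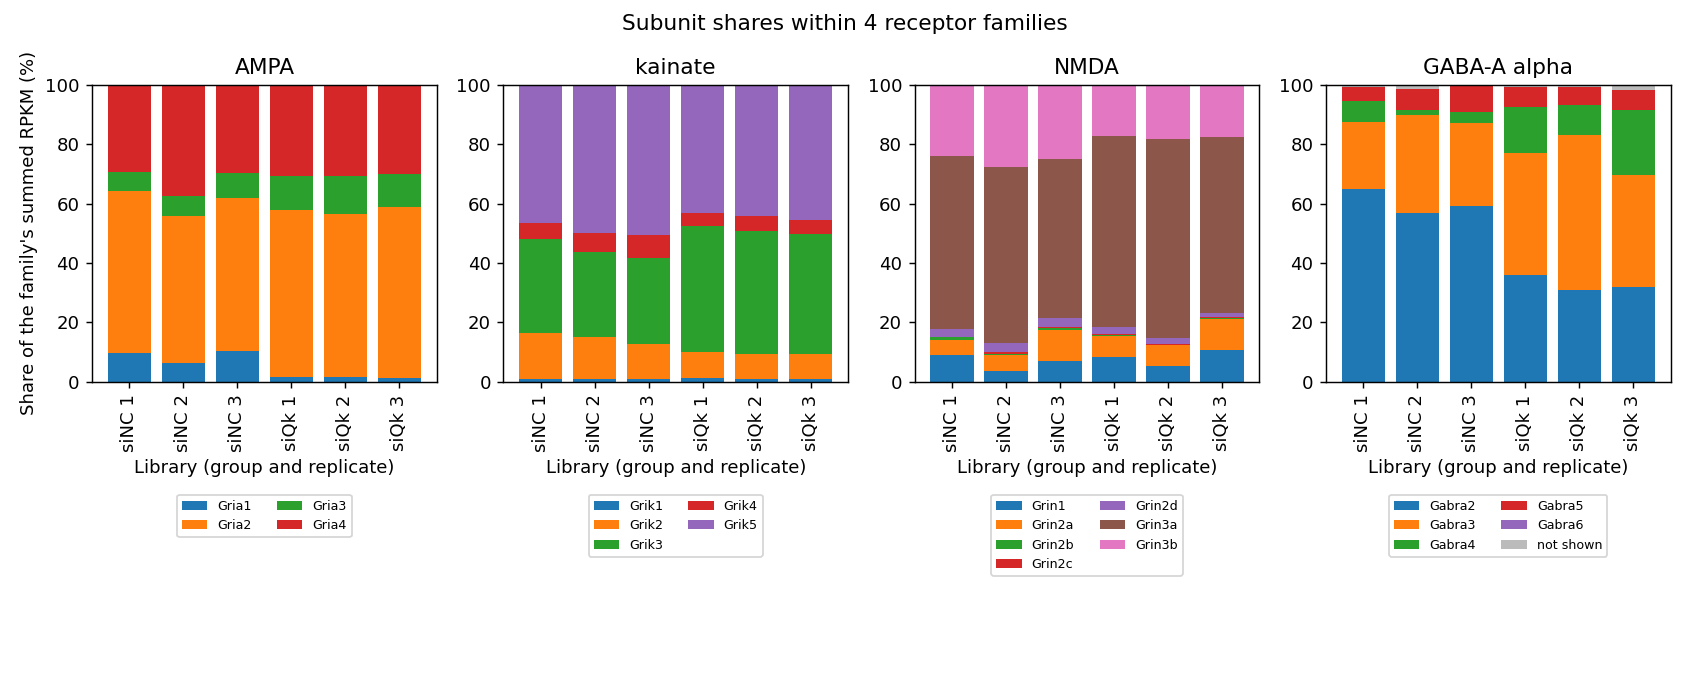
Share of subunits in their family’s summed RPKM (vertical axis, %) in each of the 6 libraries, for the AMPA, kainate, NMDA and GABA-A alpha families, with the rest in grey. Gria1 shrinks from 8.79% to 1.54% of the AMPA sum, Grik3 grows from 29.7% to 41.5% of the kainate sum, and Gabra2 drops from 60.4% to 32.9% of the alpha sum (group means).

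No mGlu receptor gene was called in the analysis reported. Grm5, the group I receptor that raises intracellular calcium, was at 14.1, 12.9 and 16.2 RPKM in siNC and at 14.9, 14.2 and 16.8 RPKM in siQk. The ranges overlapped (log2 fold change −0.06, SE 0.10, adjusted p = 0.655, edgeR). Of the group II genes, which lower cyclic AMP, Grm2 reached at most 0.0387 RPKM and Grm3 lay between 0.1003 and 0.209 RPKM.

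Of the group III genes, which also lower cyclic AMP, Grm7 spread widely within both groups. It was at 5.69, 7.86 and 3.37 RPKM in siNC and at 5.34, 3.42 and 8.20 RPKM in siQk, spanning nearly the same range in both groups (log2 fold change −0.15, SE 0.40, adjusted p = 0.789, edgeR). Grm4 lay between 0.140 and 0.474 RPKM in siNC and between 0.104 and 0.152 RPKM in siQk, with siNC 1 inside the siQk range. Behind these levels were 36 to 277 tags in siNC and 38 to 87 tags in siQk. The gene was not called. Its log2 fold change of −1.40 (SE 0.40) had an adjusted p of 0.0341 and an unadjusted p of 0.0108 in edgeR's quasi-likelihood test, just outside the cutoff. It was called with no filter, by DESeq2, by edgeR's likelihood ratio and exact tests, without siNC 1, and under FDR below 0.05 alone.

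Grm8 was below the filter, at 0.149, 0.134 and 0.145 RPKM in siNC and 0.0565, 0.0555 and 0.0705 RPKM in siQk. These values rest on 64 to 142 tags in siNC and 34 to 66 tags in siQk. The groups did not overlap, and with the filter lowered to an average logCPM of −2 it was called (log2 fold change −1.36, adjusted p = 0.00409, edgeR). Grm6 had no tag except 2 in siQk 2.

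For GABA-A receptors the order of the alpha subunits differed between the groups. These subunits shape the benzodiazepine site and the speed of the channel. Of 6 alpha genes 4 were tested and 3 were called (75%, beside 31.0% of all genes tested), Gabra2 lower and Gabra3 and Gabra4 higher. Gabra2 (gene ID 14395, chr5:70958392-71095849) was at 3.33, 2.76 and 3.39 RPKM in siNC and at 2.08, 1.89 and 1.97 RPKM in siQk. Every siQk library was below every siNC library. It fell 1.77-fold (log2 fold change −0.82, SE 0.13, adjusted p = 0.00414, edgeR's quasi-likelihood test), and all 17 alternatives called it (−0.92 to −0.67).

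Gabra3 (gene ID 14396, chrX:72432676-72656919) was at 1.16, 1.596 and 1.598 RPKM in siNC and at 2.39, 3.19 and 2.35 RPKM in siQk, so the groups were apart. It rose 1.64-fold (log2 fold change 0.71, SE 0.16, adjusted p = 0.0158, edgeR). The call was lost without siNC 1 (0.61) or without siQk 2 (0.57), with adjusted p of 0.0407 and 0.0469 in edgeR but unadjusted p above 0.01. Gabra4 (gene ID 14397, chr5:71569734-71658308), a subunit found in thalamic and hippocampal neurons, was at 0.358, 0.0962 and 0.205 RPKM in siNC and at 0.912, 0.625 and 1.36 RPKM in siQk. The highest siNC library was below the lowest siQk library, and both groups spread widely.

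Gabra4 rose 4.03-fold (log2 fold change 2.01, SE 0.52, adjusted p = 0.0238, edgeR), on 65 to 165 tags in siNC and 315 to 1051 tags in siQk. Leaving out siNC 2, siNC 3, siQk 1 or siQk 3 ended the call (1.64 to 2.05 on the log2 scale, adjusted p between 0.0374 and 0.0691 in edgeR). Of the 11 neuronal markers tested 4 were called higher (36.4%, beside 13.8% of all genes tested). Elavl3, Tubb3 and Rbfox3 had negative log2 fold changes that were not called (−0.61, −0.57 and −0.57). The part of neuronal RNA in the Gabra4 result was not tested. Gabra5 gave 0.244 to 0.498 RPKM in siNC and 0.362 to 0.417 RPKM in siQk (log2 fold change −0.06, SE 0.25, adjusted p = 0.861, edgeR). Gabra6 had no tag in any library.

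The summed alpha level was 5.23 ± 0.445 RPKM in siNC and 6.05 ± 0.207 RPKM in siQk (SD, n = 3 each). Gabra2 made up 65.0%, 56.8% and 59.3% of it in siNC 1 to 3 and 35.8%, 31.0% and 31.8% in siQk 1 to 3. Its mean share fell by 27.5 percentage points (60.4% ± 4.18 to 32.9% ± 2.60, exact permutation p = 0.1, the smallest possible, and 0.2 adjusted over 10 families). Gabra3 went from 27.9% ± 5.10 to 43.7% ± 7.48 and was the leading alpha subunit in every siQk library, where Gabra2 had led in every siNC library. Gabra4 went from 4.19% ± 2.56 to 15.95% ± 5.88.

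Beta and gamma subunits complete the channel. Among them, Gabrb2 gave 0.307 to 0.557 RPKM in siNC and 0.461 to 0.558 RPKM in siQk (log2 fold change 0.16, SE 0.24, adjusted p = 0.626, edgeR).

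Gabrg1, a gamma subunit found in glia, was at 12.1, 11.3 and 17.6 RPKM in siNC and at 20.4, 14.8 and 21.6 RPKM in siQk. The highest siNC library exceeded the lowest siQk library, and the log2 fold change of 0.32 (SE 0.20) was not called (adjusted p = 0.233, edgeR).

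Gabrb1, below the filter, was at 0.222, 0.102 and 0.143 RPKM in siNC and at 0.403, 0.260 and 0.565 RPKM in siQk, from 21 to 35 and 40 to 133 tags. The groups did not overlap, and under the lowered filter its log2 fold change was 1.31 without a call (adjusted p = 0.0456, edgeR). Several other GABA-A genes were near the limit of counting. Gabrg3 lay between 0.121 and 0.381 RPKM and Gabrr2, a rho subunit, between 0.0756 and 0.352 RPKM. Gabrd, Gabre and Gabrr1 stayed at or below 0.0465 RPKM, and Gabrr3 had no tag in any library. A count of 0 allows up to 3 tags, which for a transcript of 1 kilobase is 0.0516 RPKM in siNC 1 and 0.0213 RPKM in siQk 1, for counting error only.

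GABA-A genes lie in clusters, and 4 of these genes are neighbours on chromosome 5, in the order Gabrg1 (chr5:70751047-70842617), Gabra2, Gabra4 and Gabrb1 (chr5:71657921-72149572). Along this stretch Gabra2 fell, Gabra4 rose, and Gabrg1 and Gabrb1 were not called. Gabra4 and Gabrb1 are transcribed in opposite directions from starts that lie close together, and their annotated 5′ ends overlap by 388 bases (chr5:71657921-71658308). Tags in the overlap could belong to either gene. Levels of the cluster are compared in the plot by genomic order.

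**Figure D4:**
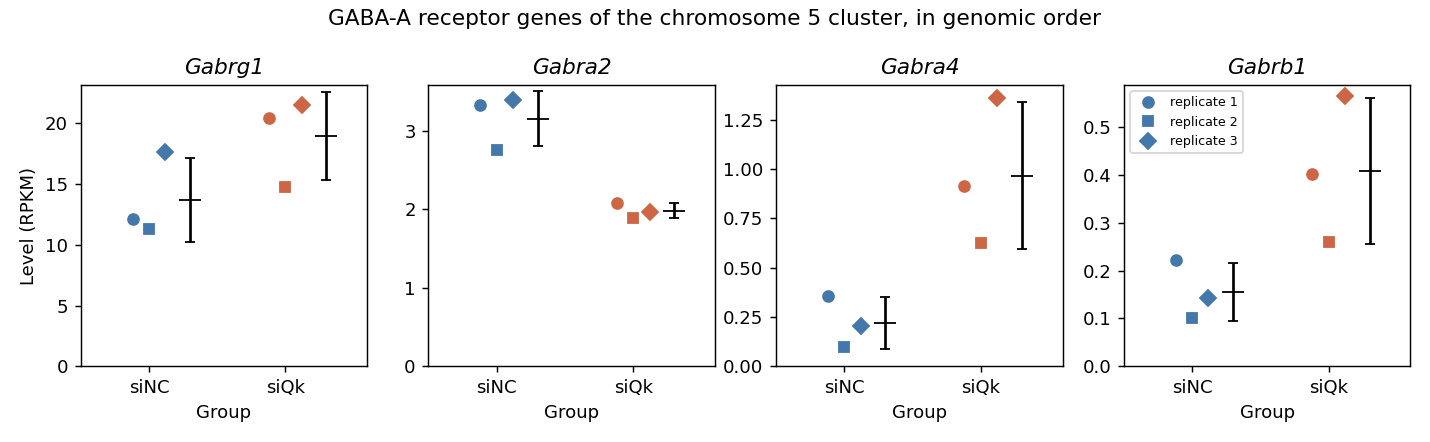
Level (RPKM, vertical axes from 0 with a scale for each gene) of the 4 GABA-A genes of the chromosome 5 cluster in siNC and siQk, in genomic order. Marker shapes are replicate numbers and the bars give the mean and SD of 3 libraries. Gabra2 is lower in every siQk library, Gabra4 and Gabrb1 are higher in every siQk library, and Gabrg1 overlaps.

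The promoters of this pair are printed because the transcripts start so near each other. Each is the RefSeq window (GRCm38.p6) of 250 bases before and 50 bases after the annotated start, 5′ to 3′ on the gene's own strand, with the 50 transcribed bases in capitals.
Gabra4, chr5:71658259-71658558, minus strand: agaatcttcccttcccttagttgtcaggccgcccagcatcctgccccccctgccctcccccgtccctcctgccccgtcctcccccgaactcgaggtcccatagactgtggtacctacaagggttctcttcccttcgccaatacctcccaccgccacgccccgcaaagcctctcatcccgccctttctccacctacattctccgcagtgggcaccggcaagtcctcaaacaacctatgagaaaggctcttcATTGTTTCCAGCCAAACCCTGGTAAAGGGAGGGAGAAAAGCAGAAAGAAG
Gabrb1, chr5:71657671-71657970, plus strand: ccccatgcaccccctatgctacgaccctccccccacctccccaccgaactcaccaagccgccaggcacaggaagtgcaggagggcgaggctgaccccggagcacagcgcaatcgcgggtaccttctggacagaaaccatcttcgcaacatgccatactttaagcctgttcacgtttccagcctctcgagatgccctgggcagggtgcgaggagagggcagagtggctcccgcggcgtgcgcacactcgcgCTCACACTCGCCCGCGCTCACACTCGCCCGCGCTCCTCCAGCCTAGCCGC

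Both windows were richer in G and C than the median of the 32851 promoters in the table. The Gabra4 window held 58.7% G or C and 12 CpG dinucleotides, and the Gabrb1 window 66.0% and 25, beside medians of 52.7% and 7. Neither window held TATAAA on either strand, a motif present in 13.6% of all the promoters. RefSeq also lists a second Gabrb1 start further downstream, with its window at chr5:71699682-71699981. The deposited levels are per gene, so the start that was used in these cells cannot be read from them. A promoter entry was found for 30 of the 45 receptor genes.

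The GABA-B subunits were both well expressed and neither was called. Gabbr1, which binds GABA, was at 12.6, 15.0 and 14.8 RPKM in siNC and at 15.0, 13.5 and 17.5 RPKM in siQk (log2 fold change −0.03, SE 0.11, adjusted p = 0.841, edgeR). Gabbr2, which couples to the G protein, was at 24.1, 15.6 and 23.2 RPKM in siNC and at 24.2, 20.96 and 30.1 RPKM in siQk (0.11, SE 0.21, adjusted p = 0.710, edgeR). Both pairs of ranges overlapped. The Gabbr2 share of their sum was 59.2% and 61.9% (exact permutation p = 0.8).

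Genes that work with these receptors were read from 6 lists, with 90 genes in the files and 73 tested. Of these 26 (35.6%) were called, 10 higher (13.7%) and 16 lower (21.9%), beside 31.0%, 13.8% and 17.2% of all genes tested, with a median log2 fold change of 0.01, the same as over all genes, and 16 or 17 were called without siQk 1 or siQk 2. Of 18 auxiliary subunits of AMPA and kainate receptors, which govern trafficking and gating, 15 were tested, 3 were called higher (20%) and 2 lower (13.3%, median −0.11). Cacng5, an AMPA receptor auxiliary subunit, fell from 40.1 ± 3.67 to 18.5 RPKM (log2 fold change −1.27, adjusted p = 0.00369, edgeR), and Cnih3 from 2.42 to 1.22 RPKM (−1.14, adjusted p = 0.0263, edgeR). Neto1, an auxiliary subunit of kainate receptors, rose from 10.03 to 17.4 RPKM (0.65, adjusted p = 0.00501, edgeR). The most abundant members, Cacng7 (146 and 149 RPKM) and Cacng4 (67.7 and 81.1 RPKM), were not called.

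Of 28 scaffold and trafficking genes at excitatory synapses 24 were tested, 5 were called higher (20.8%) and 3 lower (12.5%, median 0.19). Dlg1 fell (−0.68) and Dlg3, of the same scaffold family, rose (0.61). Of 19 partners of GABA receptors 15 were tested, 5 were called lower (33.3%, beside 17.2% of all genes) and none higher (beside 13.8%), with a median of −0.12. Lhfpl3, a relative of the GABA-A receptor partner Lhfpl4 and an OPC marker in the list above, fell from 203 to 108 RPKM (−1.07, adjusted p = 0.00117, edgeR). Clptm1, which holds GABA-A receptors back in the endoplasmic reticulum, fell by 0.59 on the log2 scale.

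Of 18 genes for making, breaking down or taking up glutamate and GABA 13 were tested, 5 were called lower (38.5%, beside 17.2% of all genes) and none higher (beside 13.8%), with a median of −0.26. The glutamate transporters Slc1a3 (25.5 to 10.9 RPKM, −1.38, adjusted p = 0.000821) and Slc1a2 (17.5 to 9.34 RPKM, −1.06, adjusted p = 0.00486, both by edgeR) fell. These transporters are also on the astrocyte list, on which Gfap and Aldh1l1 fell too. On the same list Fgfr3 (0.21), Aldoc (0.03) and Aqp4 (−0.40) were tested and not called. The part of astrocyte RNA was not tested. Gad2, an enzyme that makes GABA, fell from a low level (0.269 to 0.0654 RPKM, −2.19, adjusted p = 0.00247, edgeR). Among 3 genes of the RNA editing enzyme family, Adarb1, known for editing the Gria2 transcript, rose from 2.37 ± 0.534 to 4.95 RPKM (0.92, adjusted p = 0.00441, edgeR). Adarb2, listed by family and not by a known editing activity, rose from 0.905 to 2.45 RPKM (1.28, adjusted p = 0.00105, edgeR). Editing itself was not measured here. The chloride importer Slc12a2, which sets the direction of GABA-A currents, fell from 103 to 69.2 RPKM (−0.73, adjusted p = 0.00434, edgeR).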

How the data were processed

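RNA-seq of 6 mOPC libraries (3 siNC, 3 siQk) was analysed. The authors mapped reads to mm10 with OLego and counted with Quantas. The deposited values are, per gene, an estimated count of tags, which need not be whole, made by the authors with Quantas, and RPKM, which the authors derived from those counts, exon length and total tags. No version of the gene models is given in the sources used here. Counts were rounded and tested in R 4.3.3 with edgeR 4.0.16 (quasi-likelihood test, TMM scaling, group as the only term, average logCPM over 0, calls at P below 0.01 and Benjamini-Hochberg FDR below 0.1 over all 12505 genes). RPKM served for levels and shares. Replicate libraries of a group all differed beyond sampling noise (chi-square per degree of freedom of at least 44.7). The scripts were tested on simulated counts. The receptor genes and lists were chosen with earlier results of these data known. Receptor genes were named or counted: values by library were given for genes called or with a mean of at least 0.5 RPKM, and genes below the filter were named at 0.1 RPKM or more or given as upper limits. From a partner list up to 4 called genes with the largest changes in each direction were eligible. In addition Grm8 was described by library after its values were seen. Alternatives covered scaling, filters, other tests including DESeq2 1.42.0, a replicate block and leaving out each library. Some genes that entered the fits, counts and sums are not reported here. Gene positions and promoters came from RefSeq tables of GRCm38.p6, and 3′UTRs from GENCODE M21.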

Additional observations from a re-analysis of the deposited data

How the results depend on the processing

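The count of 8 receptor genes called was 8 to 11 under every other scaling, filter, test and cutoff, and all 8 genes were shared in each of these. Receptor genes called lower numbered 3 in the analysis reported and 5 with no filter, 6 with DESeq2, 5 with the likelihood ratio test, 5 with edgeR's exact test and 6 with FDR below 0.05 alone. Leaving out 1 library gave 6 to 10 receptor genes (6 or 7 of the 8 shared), 3 to 5 lower, 3 to 5 higher and 16 to 24 partner genes. Gria1, Grik3, Grin3a and Gabra2 were called under all 17 alternatives, and Gria3, Gabra3 and Gabra4 lost their call only when a library was left out. Among these settings, signs turned for genes near 0: with library sizes only, Gria2 (0.14), Grm5 (0.0862), Grm7 (0.005), Gabra5 (0.0743) and Gabbr1 (0.12), with upper quartile scaling Gria2 (0.0495) and Gabbr1 (0.0289), and with no filter or filterByExpr Gria2 (0.0132 and 0.0038). The cause was not tested beyond the scaling itself. Leaving out 1 library, the log2 fold change crossed 0 in Gria2 (−0.0947 to 0.0462), Grid1 (−0.0415 to 0.0745), Grik5 (−0.0093 to 0.0854), Grm5 (−0.15 to 0.0007), Grm7 (−0.52 to 0.15), Gabrb2 (−0.0227 to 0.47), Gabbr1 (−0.14 to 0.062) and Gabbr2 (−0.0776 to 0.27), as did the difference in share of Grm5 within its group's summed RPKM (−0.00371 to 0.0881 points) and of Gabbr2 within the GABA-B sum (−1.41 to 5.93 points). The same numbers name replicates of both groups, but did not pair the libraries (correlations of same-numbered deviations −0.05, −0.15 and −0.34). With the replicate block 9 receptor genes (Grin2a in addition) and 2796 genes in all were called. Tag counts under about 100 in at least 1 library limit Gabrb1, Grm8, Grm4, Gabra4, Gabra5 and Grin2a, among others.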

Other observations

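Genes with symbols like those of the receptor subunits, but left out by the symbol rule, were read once. Grina, named after an NMDA receptor-associated protein, had a mean of 78.4 RPKM in control and 83.1 RPKM in siQk libraries (log2 fold change −0.07, adjusted p = 0.481, edgeR's quasi-likelihood test). Gabrp had no tag in any library, and Gabrq was below the filter. The listed microglial markers summed to at most 0.15 RPKM in any library and the fibroblast and vascular markers to at most 0.304 RPKM, and none of them passed the filter.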
